A study of Mus musculus with 48 samples.

Results

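The 9 genes described here encode parts of the complement system: the C1q subunits C1qa, C1qb and C1qc, the components C2, C3, C4b and Cfb, and the receptors C3ar1 and C5ar1. They were chosen by symbol, and all 9 were found among the 39637 genes of the count table. RNA had been sequenced from whole tumours of 48 female BALB/c mice, aged 8 to 9 weeks, that carried a tumour grown from injected cells under the skin. The cells were AB1, a mouse mesothelioma line, or Renca, a mouse kidney cancer line, and the tumour was removed on day 8 for AB1 and on day 10 for Renca. Every tumour was taken at the pretreatment time point, the treatment being anti-CTLA4 plus anti-PDL-1, 2 antibodies that block immune checkpoints. Mice were grouped by whether they responded, which gave 12 AB1 responders, 12 AB1 non-responders, 12 Renca responders and 12 Renca non-responders, with no mouse sampled more than once. Each tumour type is 1 transplanted cell line in 1 mouse strain.

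Complement is a cascade of plasma proteins that tags cells and debris and recruits leukocytes. In the classical pathway, C1q binds its target and the attached proteases C1r and C1s cleave C4 and C2, which form a convertase that cleaves C3. In the alternative pathway, factor B, the product of Cfb, forms the convertase with C3 itself. The released fragments C3a and C5a signal through C3ar1 and C5ar1. The liver makes most plasma complement, whereas in tissue C1q comes largely from macrophages and dendritic cells, and C3, C4 and factor B can also be made by tumour cells, fibroblasts and myeloid cells under inflammatory signals.

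Library totals ran from 16441426 to 27838494 counts, and no library repeated another. Levels are given in counts per 1000000 (CPM) after TMM scaling. All 9 genes passed the filter on low counts in every comparison, the lowest count of any of them in a library being 153, for Cfb. The 5 mesothelial markers in the table summed to at most 3.7 CPM in 23 of the 24 AB1 libraries and to 19.1 CPM in AB1 non-responder 3, where Bnc1 reached 10.1 and Wt1 7.94 CPM. Upk3b and Lrrn4 had at most 4 counts in any AB1 library. Renca tumours had renal tubule markers at a sum of 221 to 487 CPM against 13.6 to 34.6 CPM in AB1. Hepatocyte markers were low, with Fgb and Apoa1 at no more than 4 counts in any library.

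In AB1, all 9 genes were higher in responders by edgeR's quasi-likelihood test with Benjamini-Hochberg adjustment over all genes, at a threshold of 0.05. Of all 15859 genes tested, 27.7% were called higher, 32.7% lower and 60.4% were called in either direction. The log2 fold changes, always responder against non-responder, ran from 0.46 for C3ar1 to 2.41 for C3, with a median of 0.98 against -0.04 for all genes tested. In Renca, 7 of the 9 were higher, where 11.1% of 15778 genes were called higher, 8.52% lower and 19.6% in either direction, and the median of the 9 was 0.38 against -0.01. C2 and C5ar1 did not pass in Renca. In these bulk samples, a larger number of cells of a type and more RNA per cell cannot be told apart.

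**Figure D1:**
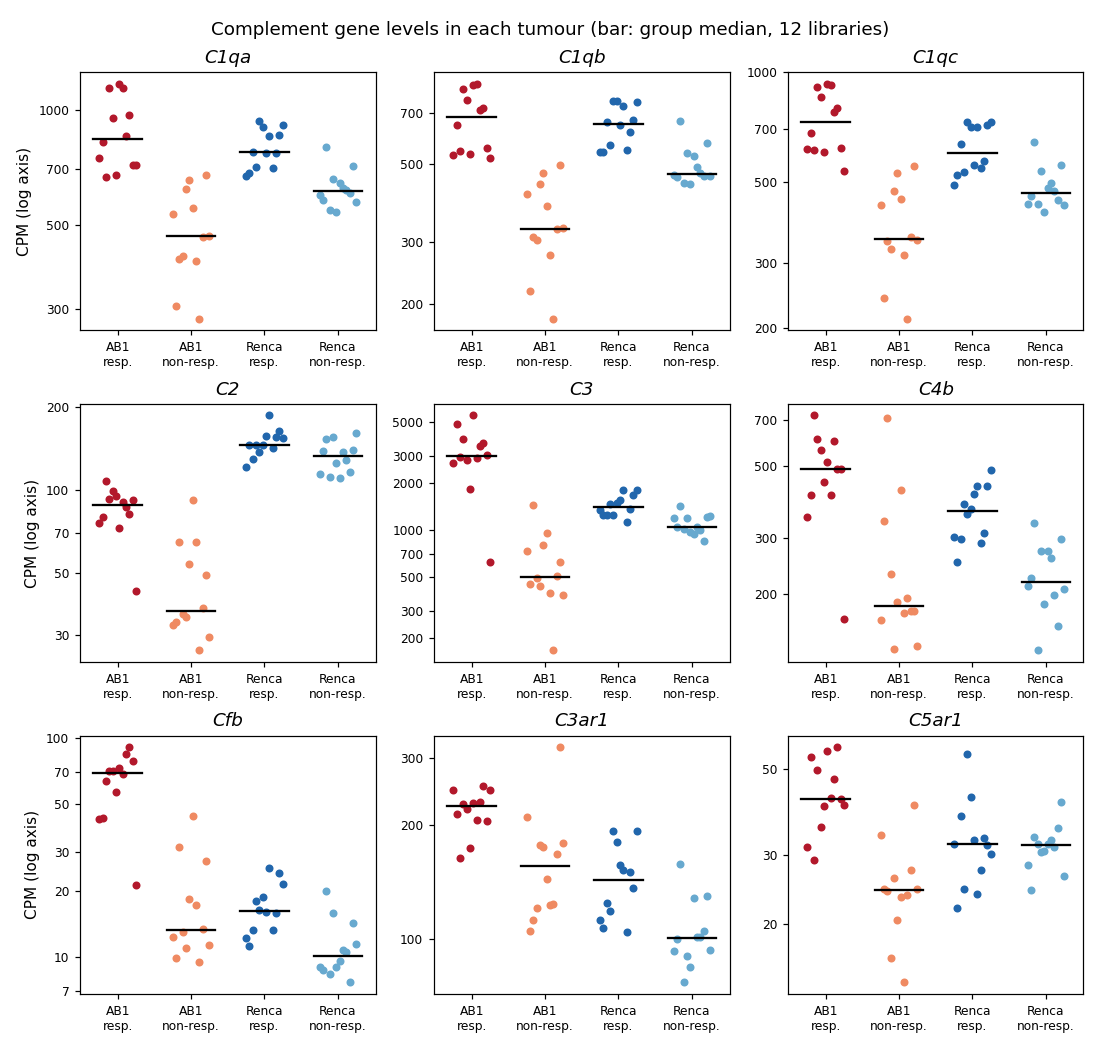
CPM of each gene in each of the 48 tumours, on log axes, with 12 libraries per group and a bar at the group median. The median of AB1 responders (dark red) lies above that of AB1 non-responders (orange) for every gene. The AB1 groups overlap for all genes but C1qb, and 1 AB1 responder sits low for C2, C3, C4b and Cfb.

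C1qa, C1qb and C1qc encode the A, B and C chains, which together build the C1q molecule that recognises bound antibody and dying cells. They lie side by side on the minus strand of chromosome 4 (GRCm38): C1qb (ENSMUSG00000036905) at 136880129 to 136886187, C1qc (ENSMUSG00000036896) at 136889804 to 136893065 and C1qa (ENSMUSG00000036887) at 136895917 to 136898803, with 3616 bases between C1qb and C1qc and 2851 between C1qc and C1qa. Promoter windows in RefSeq (GRCm38.p6) were held for 5 of the 9 genes. Those of C1qb and C1qc are shown because these neighbours had the highest correlation among the 9 genes over all 48 libraries (0.983), and that of C3 because its response effect was largest of the 9 in AB1. Each window runs 5′ to 3′ on the gene's own strand from 250 bases before the annotated start to 50 after it, with capitals marking matched motifs.
C1qb, minus strand, chr4:136886151-136886450: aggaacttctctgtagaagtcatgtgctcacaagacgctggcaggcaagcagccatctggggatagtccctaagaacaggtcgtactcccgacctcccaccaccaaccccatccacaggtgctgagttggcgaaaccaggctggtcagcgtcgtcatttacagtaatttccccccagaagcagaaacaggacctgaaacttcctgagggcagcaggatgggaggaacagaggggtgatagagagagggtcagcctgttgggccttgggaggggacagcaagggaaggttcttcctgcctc
C1qc, minus strand, chr4:136892865-136893164: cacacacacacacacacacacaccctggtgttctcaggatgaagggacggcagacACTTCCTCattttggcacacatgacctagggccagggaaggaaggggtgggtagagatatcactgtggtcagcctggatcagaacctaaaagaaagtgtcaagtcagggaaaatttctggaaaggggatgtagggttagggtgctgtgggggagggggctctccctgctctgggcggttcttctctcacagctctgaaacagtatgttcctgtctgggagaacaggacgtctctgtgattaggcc
C3, minus strand, chr17:57228087-57228386: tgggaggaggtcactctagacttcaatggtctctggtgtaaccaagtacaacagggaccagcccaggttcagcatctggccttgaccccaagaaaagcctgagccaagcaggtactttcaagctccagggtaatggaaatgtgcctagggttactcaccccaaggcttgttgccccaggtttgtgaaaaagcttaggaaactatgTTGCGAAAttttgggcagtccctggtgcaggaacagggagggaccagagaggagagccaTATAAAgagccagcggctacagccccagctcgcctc
Both strands were searched for 5 letter patterns: TTCNNNGAA, to which STAT factors can bind, GAAA and GAAA parted by any pair of bases, an interferon response element, GAGGAAGT, a PU.1 site of myeloid cells, TTGCNNAA, a C/EBP site, and TATAAA. In the C1qc window the capitals are GAGGAAGT read on the opposite strand, found in 3.2% of 32851 promoter windows. The first capitals of the C3 window match TTGCNNAA, found in 10.8%, and the second match TATAAA, found in 13.6%. The C1qb window matched none of the 5 patterns, and TTCNNNGAA (8.3% of windows) and the interferon response element (3.44%) matched none of these 3 windows.

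C1qb ran from 521 to 847 CPM with a median of 680.0 in AB1 responders, and from 181 to 497 with a median of 327 in AB1 non-responders. Every AB1 responder was above every AB1 non-responder, which held for 1.94% of all genes tested, and C1qb rose by 0.99 ± 0.15 (log2 fold change ± SE, 1.99-fold, adjusted p = 7.33e-06). In Renca, C1qb ran from 542 to 758 CPM in responders (median 652) and from 438 to 662 in non-responders (median 468). Those Renca groups overlapped, as nearly all genes' did (0% of genes tested had every responder above and 0.00634% every responder below), with 10 of 12 non-responders below the lowest responder, and C1qb rose by 0.38 ± 0.07 (edgeR adjusted p = 0.0032).

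C1qa ran from 668 to 1176 CPM in AB1 responders (median 841), against 283 to 677 in AB1 non-responders (median 466), and 1 non-responder reached into the responders' range. It rose by 0.91 ± 0.15 in AB1 (edgeR adjusted p = 1.51e-05) and by 0.35 ± 0.07 in Renca (edgeR adjusted p = 0.0032), where responders ran from 672 to 936 CPM (median 776) and non-responders from 539 to 802 (median 612). C1qc ran from 535 to 929 CPM in AB1 responders (median 729), against 212 to 552 in AB1 non-responders (median 350.0), and 1 non-responder was above the lowest responder. Its Renca responders ran from 492 to 731 CPM (median 602) and its Renca non-responders from 414 to 643 (median 466), with 4 non-responders above the lowest responder. C1qc rose by 0.99 ± 0.15 in AB1 (edgeR adjusted p = 6.46e-06) and by 0.36 ± 0.08 in Renca (edgeR adjusted p = 0.00487). For all 3 subunits, 12 of 12 responders exceeded the non-responder median in both tumours. Within the first and the second AB1 flow cell the C1qa values were 0.98 and 0.89, those of C1qb 1.03 and 0.996, and those of C1qc 1.07 and 0.96.

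The log2 ratio of C1qa to C1qb lay between 0.22 and 0.64 over the 48 libraries and that of C1qc to C1qb between -0.21 and 0.24. The C1qc to C1qb ratio was 0.04 to 0.24 in AB1 and -0.21 to 0.10 in Renca. The ratio of C1qa to either of the others was lower in AB1 responders, by a mean log2 difference of -0.095 to C1qb and -0.089 to C1qc, and only 1 of 12 responders exceeded the median non-responder for each. After the mean of each group within each flow cell was subtracted from log2 CPM, the subunits correlated at 0.973 to 0.983 over 48 libraries, and within Renca C1qa with C1qb (0.978) was above C1qc with C1qb (0.951). These points share library and depth, and the correlations here are descriptions. Per kilobase of exon, medians over 48 libraries were 650 CPM per kb for C1qa, 493 for C1qb and 278 for C1qc, and 242 for C3, 52.6 for C4b, 35.1 for C3ar1, 28.3 for C2, 12.5 for C5ar1 and 5.74 for Cfb. The order differed within groups: in AB1 responders C3, at a median of 583 CPM per kb, lay above C1qc at 378, and Cfb at 24.5 lay above C2 at 22.9 and C5ar1 at 16.3. Of 50-base transcript stretches, 73.0% for Cfb, 38.7% for C2 and 34.6% for C4b are shared with other genes. How reads of those stretches were assigned is not known, so the places of Cfb, C2 and C4b per kb are uncertain.

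C3 encodes the central component on which all pathways converge (ENSMUSG00000024164, chromosome 17, 57203970 to 57228136, minus strand). It ran from 619 to 5472 CPM in AB1 responders (median 2999), against 167 to 1452 in AB1 non-responders (median 496). Of the 12 responders, 11 were above every non-responder, and the exception, replicate 12 at 619, lay inside the non-responder range. C3 rose by 2.41 ± 0.31 (5.30-fold, edgeR adjusted p = 1.09e-06). In Renca it ran from 1120.3 to 1807 CPM in responders (median 1411) and from 852 to 1418 in non-responders (median 1047). Those groups overlapped, with 6 of 12 responders above every non-responder, and C3 rose by 0.41 ± 0.09 (1.33-fold, edgeR adjusted p = 0.00368). Among the groups, C3 was thus highest in AB1 responders and lowest in AB1 non-responders, with both Renca groups between them, and each step in that order of group means exceeded the larger SD of its neighbours on the log2 scale.

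Cfb, which encodes factor B of the alternative pathway, lies next to C2 on the minus strand of chromosome 17 (ENSMUSG00000090231, 34856374 to 34862518), 85 bases from it. It ran from 21.4 to 90.4 CPM in AB1 responders (median 69.2), against 9.44 to 43.7 in AB1 non-responders (median 13.2). Of the responders, 9 were above every non-responder, and Cfb rose by 1.84 ± 0.26 (3.58-fold, edgeR adjusted p = 3.81e-06). In Renca it ran from 11.2 to 25.5 CPM in responders (median 16.2) and from 7.64 to 19.9 in non-responders (median 10.0). The Renca groups overlapped, and Cfb rose by 0.61 ± 0.16 (1.52-fold, edgeR adjusted p = 0.0114). Of the 50-base stretches of Cfb transcripts in GENCODE M21, 73.0% are shared with Gm20547, a gene annotated across parts of Cfb and C2 on the same strand, as are 38.7% of those of C2. Gm20547 had 0 counts in all 48 libraries, so how reads of the shared stretches were assigned is not known.

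C4b encodes C4, the substrate of C1s (ENSMUSG00000073418, chromosome 17, 34728380 to 34743882, minus strand). It ran from 167 to 721 CPM in AB1 responders (median 491), against 134 to 710 in AB1 non-responders (median 183), so the groups overlapped over most of their range, although 11 of 12 responders exceeded the non-responder median. The high non-responder was replicate 3, which also had the highest mesothelial marker sum and RNA absorbance ratios of 1.08 (260/230) and 1.9 (260/280), the lowest of the group, and the low responder was replicate 12. C4b rose by 0.98 ± 0.25 (1.97-fold, edgeR adjusted p = 0.00181), with 0.79 ± 0.43 in the first flow cell (edgeR adjusted p = 0.176) and 1.15 in the second, and it was 1.23 without non-responder 3. The part of RNA purity, or of mesothelial, macrophage or interferon and inflammatory RNA, in the value of that library was not tested. In Renca it ran from 250.7 to 488 CPM in responders (median 363) and from 133 to 333 in non-responders (median 218), and 7 of 12 responders were above every non-responder. C4b rose there by 0.65 ± 0.13 (1.57-fold, edgeR adjusted p = 0.0033). Its copy C4a lies 65209 bases away, and 34.6% of C4b stretches of 50 bases also occur in C4a. The log2 ratio of C4b to C4a was 1.16 to 1.28 in all 48 libraries, so reads of the copies may have been divided by the authors' counting and their values are uncertain as separate genes.

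C2 encodes the protease that C1s cleaves beside C4 (ENSMUSG00000024371, chromosome 17, 34862604 to 34898265, minus strand). It overlaps Zbtb12, on the opposite strand, and no source used here gives the strand setting of the counting, so reads of the overlap cannot be told apart. C2 ran from 43.2 to 108 CPM in AB1 responders (median 88.7), against 26.3 to 92.5 in AB1 non-responders (median 36.6), with 4 responders above every non-responder. It rose in AB1 by 0.92 ± 0.19 (1.89-fold, edgeR adjusted p = 2.69e-04). In Renca responders it ran from 121 to 187 CPM (median 146) and in Renca non-responders from 111 to 161 (median 133), groups that overlapped in most libraries. The Renca value was 0.17 ± 0.07 (edgeR adjusted p = 0.0812), and it passed when 1 of 4 libraries was left out, at 0.20 without responder 1, 0.19 without non-responder 3, 0.20 without non-responder 5 and 0.20 without non-responder 12.

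AB1 responder 12 was the lowest AB1 responder for 6 of the 9 genes. It had the highest summed fibroblast markers of the AB1 responders (27300 CPM) and the lowest summed interferon and inflammatory genes (2580 CPM), while its macrophage markers, at 4630 CPM, ranked among the highest. Leaving it out ended no call of the 9 genes in AB1, and over the 24 AB1 fits that each left out 1 library, C3 ran from 2.28 to 2.61, C4b from 0.91 to 1.23 and C2 from 0.86 to 1.07.

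C3ar1 encodes the receptor for C3a (ENSMUSG00000040552, chromosome 6, 122847138 to 122856161, minus strand). It ran from 164 to 254 CPM in AB1 responders (median 224), against 105 to 321 in AB1 non-responders (median 156), the highest library of all being non-responder 11. The groups overlapped and no responder was above every non-responder, yet 12 of 12 responders exceeded the non-responder median. C3ar1 rose by 0.46 ± 0.15 in AB1 (1.38-fold, edgeR adjusted p = 0.00863), with 0.62 in the first flow cell and 0.38 ± 0.19 in the second (edgeR adjusted p = 0.115). In Renca responders it ran from 104 to 193 CPM (median 143) and in Renca non-responders from 76.9 to 158 (median 100.5). It rose there by 0.46 ± 0.12 (1.38-fold, edgeR adjusted p = 0.0103).

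C5ar1 encodes the receptor for C5a on neutrophils and macrophages (ENSMUSG00000049130, chromosome 7, 16246743 to 16259540, minus strand). It ran from 29.2 to 56.7 CPM in AB1 responders (median 41.9), against 14.2 to 40.3 in AB1 non-responders (median 24.5), with 8 responders above every non-responder. It rose by 0.84 ± 0.14 (1.79-fold, edgeR adjusted p = 2.89e-05). In Renca, responders ran from 22.04 to 54.5 CPM (median 32.0) and non-responders from 24.4 to 41.0 (median 31.9), with the non-responders lying inside the responders' range. The Renca value was 0.05 ± 0.12 (edgeR adjusted p = 0.782).

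The Renca calls depended on the fit. In the first Renca flow cell, with 6 libraries per group, edgeR called 0 of the 9 genes and 0 of all genes tested. Before adjustment, p by edgeR was under 0.05 there, in either direction, for 6 of the 9 and for 2803 of the 15590 genes tested. DESeq2 was not run on that flow cell. In the second flow cell edgeR called 7 of the 9 higher, and 5.71% of all genes. The C1qa, C1qb and C1qc values were 0.33, 0.35 and 0.31 in the first flow cell and 0.38, 0.42 and 0.41 in the second, so their sizes were close. C3 was at 0.24 and 0.58, Cfb at 0.35 and 0.87, C4b at 0.53 and 0.77 and C3ar1 at 0.48 and 0.45. The RNA absorbance ratio 260/230 averaged 1.99 ± 0.147 for Renca responders, against 2.12 ± 0.108 for those that did not respond (mean ± SD, n = 12 each). In AB1 the ratio was higher in responders, at 2.18 ± 0.101 against 1.98 ± 0.342, and with both purity ratios as covariates all 9 genes still passed in AB1. Before adjustment, p by edgeR was under 0.05 in that AB1 fit for 9 of the 9 and for 9821 of all genes. The main AB1 fit had 10185 such genes. These unadjusted counts are not counts of genes passing. In Renca, with both purity ratios of the labels as covariates, 0 of the 9 passed by edgeR (0.774% of all genes were called higher). Before adjustment, p by edgeR was under 0.05, in either direction, for 7 of them and for 3554 of the 16531 genes tested. The values were 0.28 for C1qa, 0.35 for C3, 0.60 for C4b and 0.42 for Cfb, and the edgeR adjusted p of the 9 ran from 0.0506 to 0.933. In 1 fit of all 48 libraries, C3ar1 alone of the 9 passed in Renca, where 2.96% of all genes were called higher.

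The other genes of the pathway were 45 listed regulators, proteases, terminal components and receptors, of which 37 were in the table. In AB1, 14 rose and 3 fell of 28 tested, with a median of 0.30. Of all genes tested there, 27.7% were called higher and 32.7% lower, with a median of -0.04. The C1 proteases rose, as C1q did: C1ra rose by 1.19 ± 0.18 and C1rb by 1.19 ± 0.17, and C1s1 rose by 1.62 ± 0.24 and C1s2 by 1.63 ± 0.23, and for each of these genes 12 of 12 responders exceeded the median non-responder. C1s1 stood at a median of 1443 CPM in AB1 responders, against 343 in AB1 non-responders. C1ra and C1rb share 50.8% and 60.6% of their 50-base stretches with other genes, chiefly each other, and C1s1 and C1s2 share 21.9% and 26.9%, so their separate values are uncertain. Itgb2, the beta chain of complement receptors 3 and 4, rose by 1.46 ± 0.15 (edgeR adjusted p = 3.94e-07), and Itgam, the alpha chain of receptor 3, rose by 0.72 ± 0.09.

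Those that fell in AB1 were Vsig4, a receptor for C3b on resident macrophages, and the inhibitors of the membrane attack complex Cd59a and Cd59b. Vsig4 fell by 2.00 ± 0.33, from a median of 1.11 CPM in AB1 non-responders to 0.290 in AB1 responders, a low level in both groups. Cd59a fell by 0.65 ± 0.11, from 22.4 to 15.6 CPM, and Cd59b fell by 0.69 ± 0.12, from 2.34 to 1.43 CPM. None of the 12 responders exceeded the non-responder median for any of the 3.

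In Renca, 11 of the other complement genes rose and 3 fell of 32 tested, with a median of 0.13. Of all genes tested there, 11.1% were called higher and 8.52% lower, with a median of -0.01. C6, a component of the membrane attack complex, rose by 1.06 ± 0.19, from a median of 5.10 to 11.3 CPM. Serping1, the C1 inhibitor, rose by 0.74 ± 0.14, C4a by 0.64 ± 0.12, C1rb by 0.30 ± 0.06 and C1s2 by 0.41 ± 0.08. Those that fell were the C4b-binding protein C4bp, by 0.64 ± 0.11, Susd4, an inhibitor of the C3 convertase, by 0.69 ± 0.18, and Clu, clusterin, by 0.18 ± 0.06. C4bp stayed low, with medians of 0.811 CPM in Renca non-responders and 0.555 in Renca responders, and had at most 1 count in any AB1 library.

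**Figure D2:**
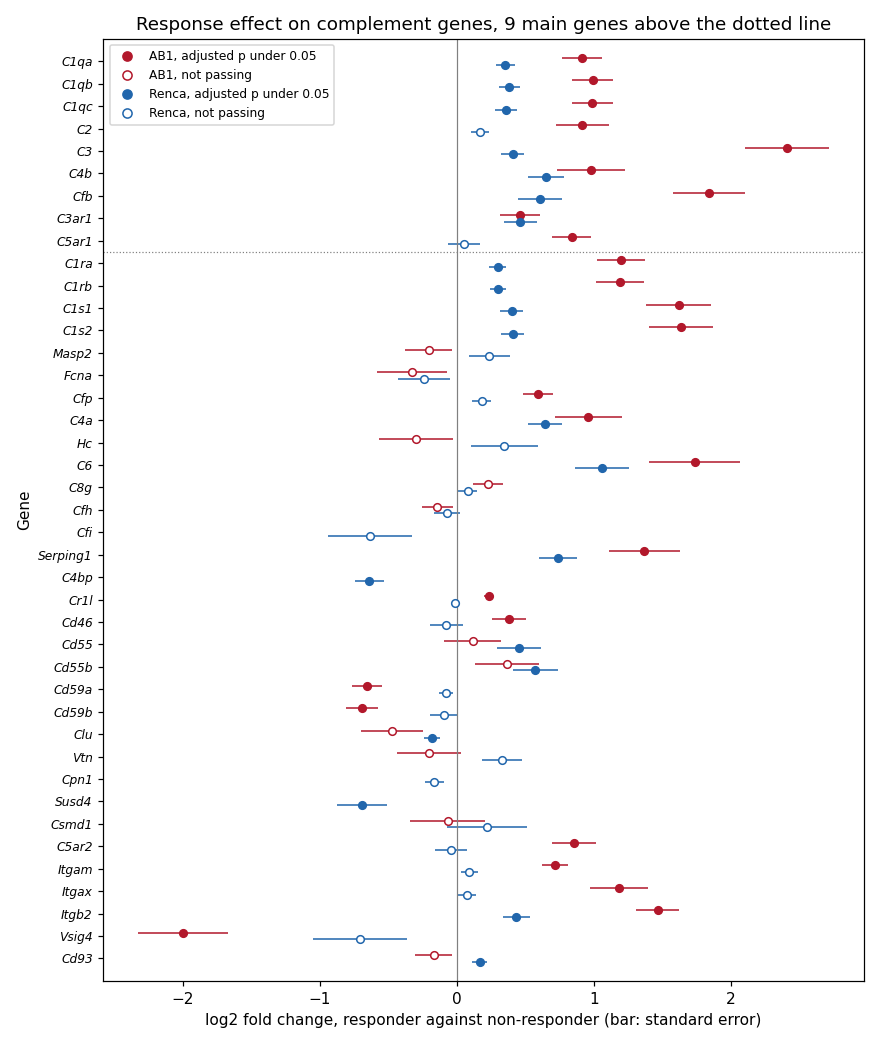
Log2 fold change of responders against non-responders in AB1 (red) and Renca (blue) for the 9 genes above the dotted line and the other complement genes tested below it, with bars at 1 standard error. Filled points passed at an adjusted p of 0.05, and the AB1 value exceeds the Renca value for most filled red points, with C3 the largest of the 9 at 2.41 in AB1.

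The difference between the response effects was tested in 1 model of all 48 libraries. The AB1 effect was larger for 7 of the 9, where 22.9% of 16920 genes were called in that direction, 18.6% in the other and 41.6% in either. The difference was 2.04 ± 0.31 for C3 (edgeR adjusted p = 1.83e-06) and 1.27 ± 0.31 for Cfb (edgeR adjusted p = 8.93e-04). It was 0.82 ± 0.19 for C5ar1, 0.79 ± 0.20 for C2, 0.66 ± 0.17 for C1qc, 0.64 ± 0.17 for C1qb and 0.59 ± 0.16 for C1qa. C4b, at 0.37 ± 0.28, did not pass (edgeR adjusted p = 0.308), although it did at 0.59 without AB1 non-responder 3 (adjusted p = 0.0489). The difference for C3ar1 was 0.03 ± 0.19 (edgeR adjusted p = 0.903). Since each line had its own removal day and flow cells, line, day and flow cell cannot be told apart in these differences.

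Between the tumours, with response as a term, 2 of the 9 were higher in AB1 and 2 were lower, where 42.2% of 16258 genes were called higher, 39.3% lower and 81.4% in either direction. Cfb was higher in AB1 by 1.301 ± 0.18 (edgeR adjusted p = 7.26e-09) and C3ar1 by 0.62 ± 0.09 (edgeR adjusted p = 8.17e-08). C2 was lower in AB1 by a log2 fold change of -1.16 ± 0.11 (edgeR adjusted p = 2.83e-13), and every AB1 library lay below every Renca library, as did 13.1% of genes tested, with 8.19% the other way round. C1qb was lower in AB1 at -0.24 ± 0.09 (edgeR adjusted p = 0.0136), a call lost with the replicate number as a block (-0.20, adjusted p = 0.0537). C4b was at 0.28 ± 0.15 (edgeR adjusted p = 0.0722) and passed at 0.31 without AB1 non-responder 5, at 0.32 without AB1 responder 12, at 0.31 without AB1 non-responder 12 and at 0.31 without Renca non-responder 3, but was at 0.16 without AB1 non-responder 3 (adjusted p = 0.244). Line, removal day and flow cell cannot be told apart in these values.

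The order of the tumours depended on response for several genes. Among responders alone, C3 was higher in AB1 by 1.13 ± 0.20 (edgeR adjusted p = 1.81e-05), and among non-responders alone it was lower at -0.84 ± 0.22 (edgeR adjusted p = 0.00155). C5ar1 was at 0.41 ± 0.13 among responders and -0.35 ± 0.12 among non-responders, and C1qc at 0.25 and -0.35, each of which passed. The number of the 9 that passed was 6 higher and 1 lower among responders, where 38.5% of all genes were called higher and 38.5% lower. It was 2 higher and 6 lower among non-responders, where 38.3% of all genes were called higher and 38.1% lower.

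The order of the 4 groups by mean log2 CPM differed between the genes. AB1 responders were highest for 8 of the 9, the exception being C2, for which both Renca groups were higher. For C1qa, C1qb, C1qc and C4b the AB1 and Renca responders, the top of the order, differed by less than the larger of their SDs. AB1 non-responders were lowest for C1qa, C1qb, C1qc, C2, C3, C4b and C5ar1, and Renca non-responders were lowest for Cfb and C3ar1. The bottom step was within the larger SD for C1qc, C4b, C5ar1 and Cfb. The step between AB1 non-responders and Renca responders was within it for C3ar1 and Cfb, and that between the Renca groups for C2 and C5ar1.

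C2, C3, C4b and Cfb correlated with each other at 0.63 to 0.84 after group means were removed, and the receptors C3ar1 and C5ar1 with each other at 0.63. The C1q subunits correlated with C2, C3, C4b and Cfb at 0.09 to 0.62 over the 48 libraries. The range was -0.07 to 0.64 within AB1 and 0.39 to 0.81 within Renca. C4b correlated with C1qa at -0.07 in AB1 but 0.74 in Renca. C3ar1 correlated with the C1q subunits at 0.66 to 0.71 over the 48 libraries, above its value with C5ar1. Within AB1 the values were 0.63 to 0.67, against 0.67 with C5ar1. Within Renca they were 0.79 to 0.90, against 0.57 with C5ar1. For C5ar1 the values with the C1q subunits were 0.45 to 0.48. The log2 ratio of C3 to C4b averaged 2.64 ± 0.525 in AB1 responders, against 1.28 ± 0.675 in AB1 non-responders (SD, n = 12), and it was 2.02 ± 0.139 and 2.28 ± 0.307 in Renca responders and those that did not respond. The log2 ratio of Cfb to its neighbour C2 was -1.93 to 0.14 in AB1 and -4.00 to -2.76 in Renca, so the tumours did not overlap, and it was higher in responders than in non-responders by 0.94 in AB1 and 0.45 in Renca.

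**Figure D3:**
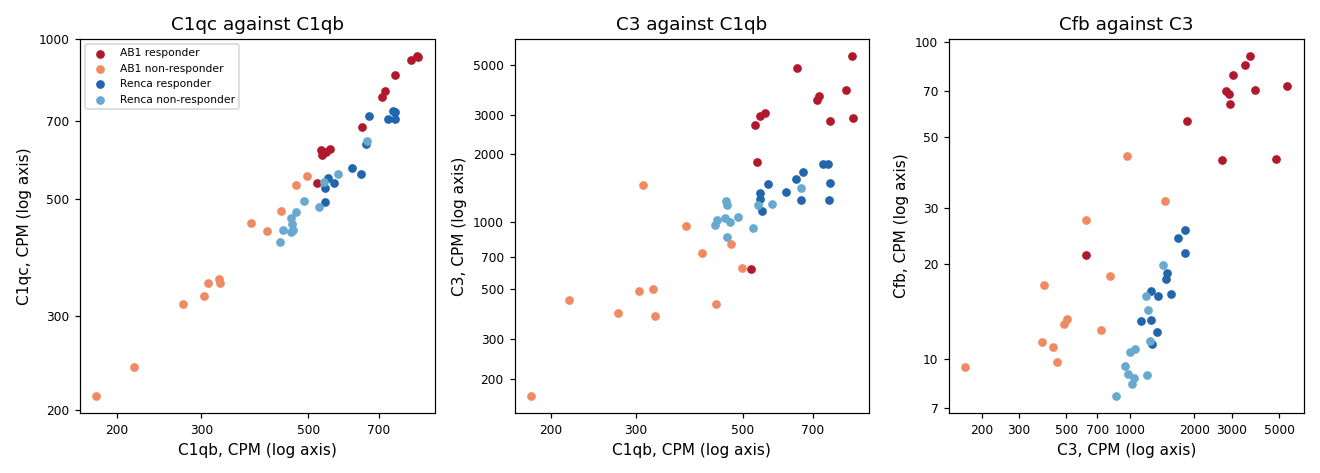
CPM of C1qc against C1qb, C3 against C1qb and Cfb against C3, on log axes, with 1 point per tumour coloured by group. C1qc follows C1qb along 1 line (correlation 0.983 after group means are removed), C3 scatters widely at a given C1qb level, and Cfb lies higher in AB1 than in Renca at a like C3 level.

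The genes most like each of the 9 over the 48 libraries, by Pearson correlation of log2 CPM after group and flow cell means were removed, were found among 10966 genes. For C1qa they were Cxcl16, a chemokine, at 0.90, Hvcn1, a proton channel, at 0.89 and Arrb2, an arrestin, at 0.86. Hvcn1 at 0.91, Cxcl16 at 0.90 and H2-Eb1, an MHC class II chain, at 0.89 were nearest C1qb. Unc93b1, which carries Toll-like receptors, Cxcl16 and the cathepsin gene Ctss were nearest C1qc, at 0.89, 0.89 and 0.88. C2 was nearest to Apol6 and to the antigen presentation genes H2-T23 and Tapbp, at 0.93 each. C3 was nearest to Pdcd1lg2, which encodes a PD-1 ligand, at 0.91, Pnrc1 at 0.89 and Dram1 at 0.88.

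For Cfb the nearest were Trafd1, Hk3, a hexokinase, and Ly6c1, at 0.95, 0.95 and 0.94. C4b was nearest to its copy C4a at 0.999, to Serping1 at 0.88 and to the TNF receptor gene Tnfrsf1a at 0.86. C3ar1 was nearest to Apobec1, Nfkb1, a subunit of NF-kB, and Rap2b, at 0.80, 0.80 and 0.79. C5ar1 had the weakest neighbours, Adam8 at 0.72, Gcnt1 at 0.71 and Cd300lb at 0.67.

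Of all genes tested, 27.7% were called higher and 32.7% lower in AB1, and 11.1% and 8.52% in Renca. Macrophage markers moved with response in AB1. Of 12 listed, 11 were in the table and 10 were tested, and 7 rose and 0 fell in AB1 (median 0.46), with Fcgr1, a high-affinity antibody receptor, at 1.29 ± 0.19 and Csf1r, the receptor for macrophage growth factor, at 0.54 ± 0.10. Their summed level ran from 3210 to 5150 CPM in AB1 responders and from 2570 to 5130 in AB1 non-responders. In Renca 4 rose and 1, Cd163, fell of 10 (median 0.09), the sums running from 4240 to 5460 CPM in responders and from 3920 to 4820 in non-responders. Marco was at 0 in 5 AB1 non-responders, 4 Renca responders and 5 Renca non-responders, and Adgre1 is not analysed here.

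Set against the mean log2 CPM of the 10 macrophage markers in the same library, C3 was still higher in AB1 responders than in AB1 non-responders by 1.93, Cfb by 1.42, C4b by 0.57, C1qb by 0.52, C1qc by 0.51, C2 by 0.48, C1qa by 0.43 and C5ar1 by 0.35, but C3ar1 by 0.01. In Renca the same differences were 0.60 for C4b, 0.55 for Cfb, 0.39 for C3ar1, 0.34 for C3, 0.31 for C1qb, 0.29 for C1qc, 0.28 for C1qa, 0.10 for C2 and -0.05 for C5ar1. With the marker level as a covariate, 16.2% of all genes were called higher in AB1, and 5 of the 9 passed (C1qb at 0.60, C1qc at 0.63, C2 at 1.0, C3 at 1.59 and Cfb at 1.54) and C1qa (0.51, edgeR adjusted p = 0.0571), C4b (0.99, edgeR adjusted p = 0.0644), C5ar1 (0.32, edgeR adjusted p = 0.0998) and C3ar1 (0.02, edgeR adjusted p = 0.929) did not. In Renca the same 7 genes passed with that covariate as without it, where 5.38% of all genes were called higher.

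**Figure D4:**
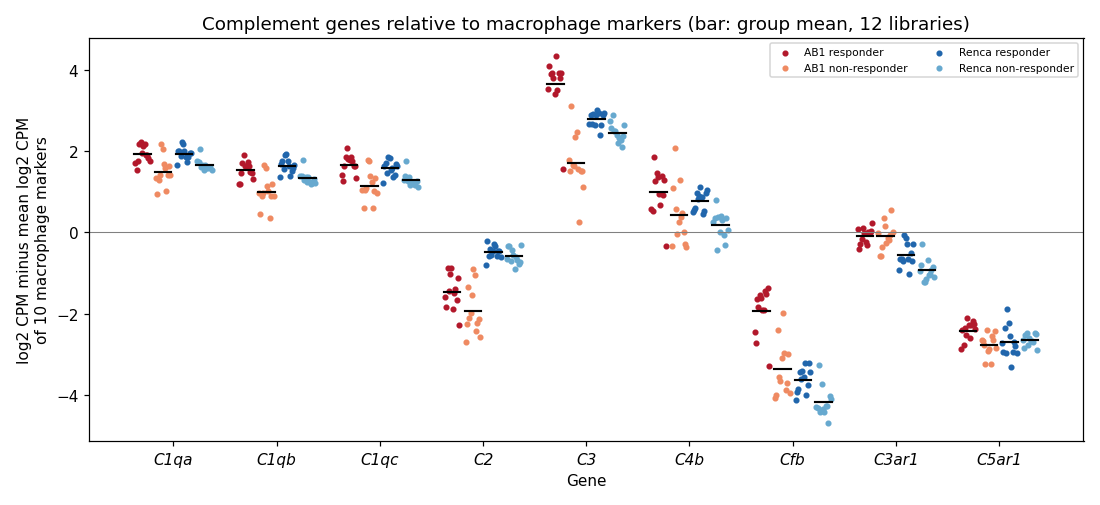
Log2 CPM of each gene minus the mean log2 CPM of 10 macrophage markers in the same library, for 12 libraries per group, with a bar at the group mean. C3 and Cfb stay higher in AB1 responders than in AB1 non-responders, by 1.93 and 1.42, while the AB1 groups of C3ar1 differ by 0.01.

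Several other cell type lists also moved with response. The counts stand beside shares of all genes called higher of 27.7% in AB1 and 11.1% in Renca. The shares called lower were 32.7% and 8.52%. A short list with few genes called cannot be set apart from those shares. In AB1, 6 of 7 monocyte markers, 6 of 7 neutrophil markers, 7 of 8 dendritic cell markers, 7 of 7 T cell markers, 5 of 5 NK cell markers and 4 of 4 mast cell markers rose, as did 11 of 11 interferon and inflammatory genes, and 5 of 6 fibroblast markers fell. Vcan of the monocyte list, Mmp9 of the neutrophil list and Cd209a of the dendritic cell list fell. Summed monocyte markers ran from 1460 to 3720 CPM in AB1 responders and from 940 to 2410 in AB1 non-responders, summed T cell markers from 125 to 341 and from 15.7 to 119, and summed fibroblast markers from 9940 to 27300 and from 19000 to 32100. Summed neutrophil markers had a lower median in AB1 responders (802 CPM) than in AB1 non-responders (1140 CPM). In Renca, 4 of 6 monocyte markers, 2 of 7 neutrophil markers, 4 of 8 dendritic cell markers, 7 of 7 T cell markers, 5 of 5 NK cell markers, 1 of 2 mast cell markers and 7 of 11 interferon and inflammatory genes rose, and 4 of 5 renal tubule markers fell. B cell markers had 0 of 5 passing in either tumour. Endothelial markers had 1 higher and 2 lower of 6 in AB1 and 0 of 6 in Renca. Hepatocyte markers had 1 of 3 higher in both tumours. Mesothelial markers had 0 of 1 passing in AB1 and 0 of 2 in Renca, and the 1 renal tubule marker tested in AB1 did not pass. The part of cell content in the values of the 9 genes was not tested. The macrophage covariate cannot separate cell number from RNA per cell. In AB1 the mean log2 CPM of its 10 markers was itself higher in responders, by 0.47, against 0.07 in Renca.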

How the data were processed

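RNA of 48 tumours was measured by RNA-seq. The table deposited by the authors holds whole-number values per gene for each library, which were taken here as raw counts. HISAT2 2.0.4, StringTie 1.3.0 and bcl2fastq 2.18.0.12 are listed, with no role, by the submitters' processing notes. No source used here gives the counting tool, annotation, strand setting or mouse genome build, and coordinates come from GENCODE M21 (GRCm38), which matched 39461 of 39637 gene identifiers.

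The 9 genes and all gene lists were chosen with earlier results of these data known. Counts were analysed with edgeR 4.0.16 in R 4.3.3 (TMM, filterByExpr, quasi-likelihood test, Benjamini-Hochberg adjustment over all genes tested, threshold 0.05). Responders were compared with non-responders in each tumour with flow cell as a term, the tumours with response as a term, and the response effects by an interaction. Group labels came from the sample labels. SE is the log2 fold change divided by the square root of F. Log2 CPM used a prior count of 2. The scripts were tested on simulated data.

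All 9 genes are named throughout. Of the other complement genes, up to 6 with the smallest p per responder comparison and any that fell are named, and the 3 genes with the highest correlation to each of the 9. Responder and non-responder of the same number were sequenced in 1 lane, per the labels, for all 12 pairs of AB1 and all 12 of Renca, and their deviations from the group means correlated at -0.08 to 0.51 in AB1 and -0.12 to 0.26 in Renca. Alternatives were DESeq2 1.42.0 size factors and Wald test, no filter, no flow cell term, the replicate number as a block, each flow cell alone, purity ratios or macrophage marker level as covariates, 1 fit of all libraries, response groups alone and leaving out each library. Adding C4a to C4b and Gm20547 to Cfb was chosen after seeing the data. Library totals of 16441426 to 27838494 counts leave counting error small for these genes. Each p-value judges a group difference against the spread between libraries, each from a different mouse. That spread holds differences between mice together with those of library and RNA purity.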

Additional observations from a re-analysis of the deposited data

Results flagged for a closer look

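For 7 of the 9 genes the response effect differed between the tumours by the test of the interaction itself (edgeR, adjusted over all genes), and in each it was larger in AB1. The AB1 effect minus the Renca effect, on the log2 scale, was 2.04 for C3, 1.27 for Cfb, 0.82 for C5ar1, 0.79 for C2, 0.66 for C1qc, 0.64 for C1qb and 0.59 for C1qa. Of all genes tested, 22.9% were called in that direction and 41.6% in either. Line, removal day and flow cell cannot be told apart in these differences.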

How the results depend on the processing

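In AB1, the number of the 9 genes that passed was 5 with the macrophage covariate and 8 within either flow cell. All genes passing numbered 5816 in the first flow cell and 4471 with that covariate, against 9577 of 15859 (60.4%) in the main fit. With the covariate, 16.2% of 16592 genes tested were called higher. Before adjustment, edgeR gave p under 0.05 for 7272 of all genes in the first AB1 flow cell and 8722 in the second. The same held for 8 of the 9 in each. In Renca, 0 passed in the first flow cell, 0 with purity ratios as covariates and 1 in a single fit of 48 libraries. All genes passing in Renca numbered 0 in the first flow cell, 1253 in the second, 204 with purity ratios, 1363 with the macrophage covariate and 1040 in the single fit, against 3095. Between the tumours, 6 were higher and 1 lower among responders, 6 were lower among non-responders, and 1 was lower with the replicate block, where C1qb was at -0.20. The replicate block changed no other call of the 9 genes. Values changed sign for C5ar1 in Renca, at -0.14 in the second flow cell, -0.028 with purity ratios and -0.013 with the macrophage covariate. Between the tumours they changed sign among responders for C1qa (0.14), C1qb (0.041) and C1qc (0.25), and among non-responders for C3 (-0.84) and C5ar1 (-0.35). The difference of effects for C3ar1 was -0.0012 with DESeq2 size factors, -0.0011 by the DESeq2 Wald test, -0.038 with no filter and -0.038 with no flow cell term. The cause was not tested.

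Leaving out 1 library gave 9 to 9 of the 9 genes in AB1, 7 to 8 in Renca, 2 to 3 higher and 2 to 2 lower between the tumours, and 7 to 8 for the difference. All genes passing ran from 9069 to 9998 in AB1, 2304 to 3954 in Renca (793 to 1795 lower, against 1345), 13201 to 13353 between the tumours and 6674 to 7761 for the difference. C5ar1 in Renca ran from -0.025 to 0.11 and the difference for C3ar1 from -0.053 to 0.16. Adding C4a to C4b and Gm20547 to Cfb, chosen after seeing the data, could not test how shared reads were assigned, since Gm20547 had 0 counts and C4a kept a near-fixed ratio to C4b.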
